A study of Rattus norvegicus with 2 samples.

Results

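Serpins are proteins of one shared fold, most of which inhibit serine or cysteine proteases. The genes described here were all array targets whose name begins with Serpin, apart from 2 that were left out beforehand, and they number 31 of the 18401 named genes on the array. They were compared between an E19 and an E16 pool of fetal skin from Sprague Dawley rats. The E19 pool (day 18.5) combined 3 samples and the E16 pool (day 16.5) combined 4 samples, and neither pool was treated. Both pools were hybridised together on 2 arrays, with E19 in Cy5 and E16 in Cy3 on 1 array and the dyes exchanged on the other. With 1 pool per stage there is no test between the stages, and the spread between arrays is technical and says nothing of how animals or litters vary.

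An inhibitory serpin offers an exposed loop to its target protease, and when the protease cuts the loop, the serpin changes shape and traps the protease in a covalent complex. Clades are named by letter. Clade A holds mainly secreted plasma proteins, clade B holds proteins that lack a classical signal peptide and mostly act inside cells, and the other clades hold antithrombin, heparin cofactor, protease nexin, antiplasmin, a collagen chaperone and neuroserpin. In skin, clade B serpins and the protease inhibitor encoded by Spink5 are known for their place in the outer epidermis, where kallikreins and cathepsins act during cornification and shedding.

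A gene counted as detected when its probe was well above background for at least 1 pool on both arrays, and 25 of the 31 serpins were, 23 of them in both pools. The 6 not detected were Serpina10, Serpina3m, Serpina6, Serpina7, Serpinb9e and Serpini2. Serpinc1 and Serpind1 were detected through the E19 pool alone. Over the whole array, 14825 genes were detected, the share of spots well above background was 71.5% to 74.3% by channel, and no serpin probe was saturated. Ratios below are log2 E19 over E16, given as the mean of the 2 arrays ± their SD (n = 2 arrays of the same pools), and a gene was called when it was at least 2-fold in the same direction on both arrays. Levels are log2 normalised intensities of single channels, and they compare stages for 1 probe, not different probes.

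More serpins were higher in E19 than in E16. Of the 25 detected, 9 were called higher in E19 (36%), where 4.13% of all 14825 detected genes were, and 2 were called higher in E16 (8%), where 3.74% of all detected genes were. The median ratio of the detected serpins was 0.63, against 0.02 over all detected genes, and 19 of 25 lay above 0, against 52.5% of all detected genes. These include Serpinc1 and Serpind1, which were detected through E19 and could hardly lie towards E16, and the median of 0.63 is the value of Serpind1. Over the 23 serpins measured in both pools the median was 0.73, against 0.02 over the 14099 genes measured in both. Of these 23 serpins, 17 lay above 0, and the called ones were again 9 and 2. The shares of the 14099 genes above 0 or called were not counted. No serpin followed the dye by 2-fold on both arrays, and the SD between arrays ran between 0.0037 for Serpinf1 and 0.46 for Serpinh1. Spike-in control probes lay at 0.22 ± 0.036 (SD over 10 spike-ins, all above 0). Centred on them, all detected genes had a median of -0.20, the detected serpins a median of 0.41 with 18 of 25 above 0, and the counts of called serpins stayed at 9 and 2. The shares of all detected genes above 0 or called were not counted with this centring.

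**Figure D1:**
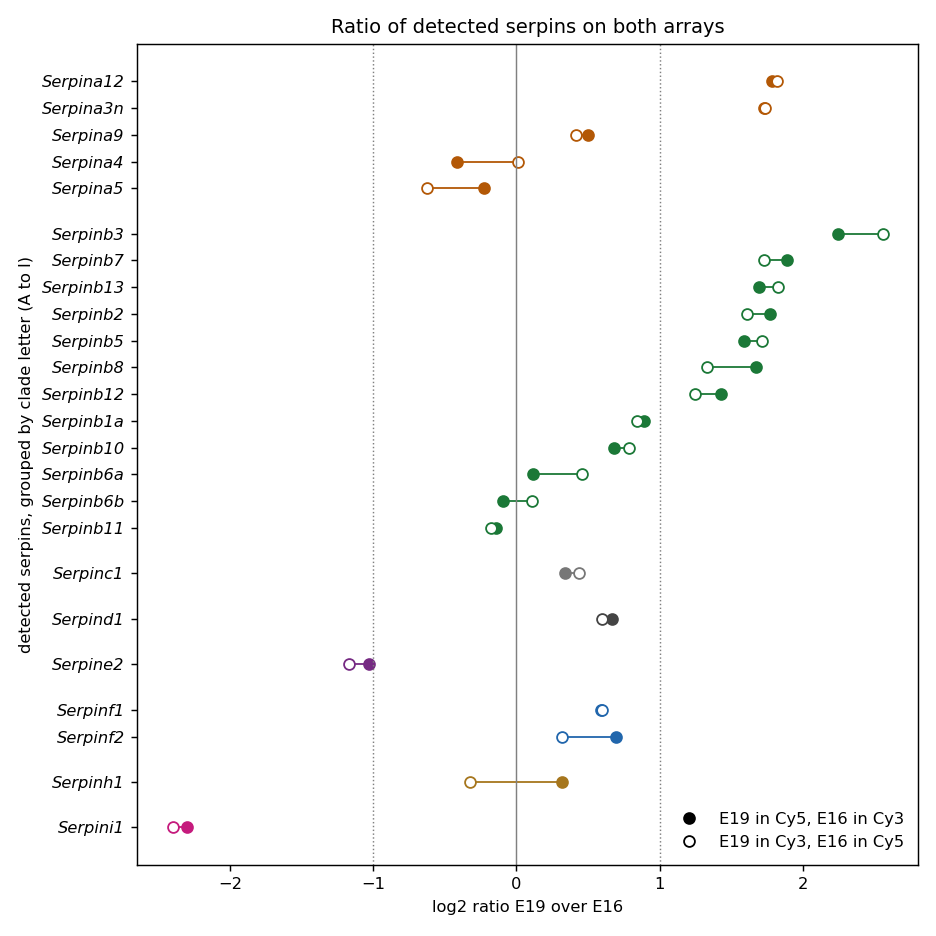
The log2 ratio E19 over E16 of 24 detected serpins, with the array that carried E19 in Cy5 as filled points and the array that carried E19 in Cy3 as open points, grouped by clade letter A to I. Dotted lines mark a 2-fold difference in either direction: 9 serpins lie beyond it towards E19 on both arrays, 7 of them in clade B, and Serpine2 and Serpini1 lie beyond it towards E16.

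**Figure D2:**
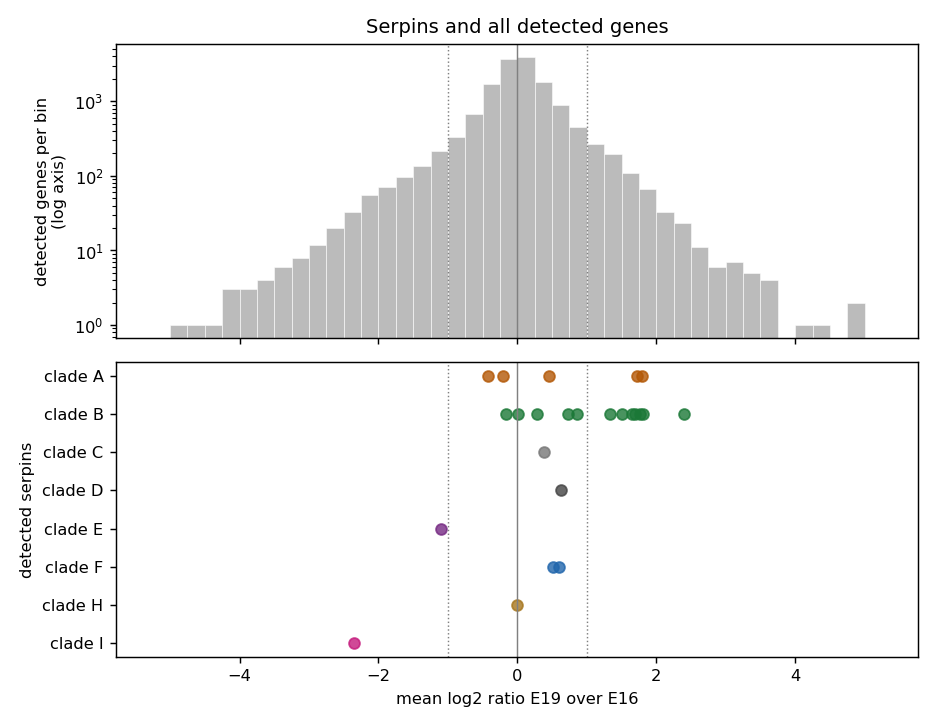
The upper panel counts all 14825 detected genes by their mean log2 ratio E19 over E16 in steps of 0.25 (log axis), and the lower panel shows the mean ratio of 24 detected serpins by clade. Serpinb3, at 2.40, has 42 detected genes above it, and Serpini1, at -2.35, has 80 below it.

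Clade B held the largest group of called serpins. Of its 13 members, 12 were detected, 7 were called higher in E19 and 0 were called higher in E16, and the median ratio was 1.42. The other clades together had 13 detected members, of which 2 were called higher in E19 and 2 higher in E16, with a median of 0.46. Keratinocyte markers moved in the same direction: 10 of the 14 detected were called higher in E19 and 0 higher in E16, their median ratio was 1.74, and their mean level was 16.13 and 16.30 in E19, against 14.19 and 14.92 in E16. In pooled tissue, a difference in the number of cells of a type and a difference in RNA per cell cannot be told apart, and the part of the keratinocyte content in the serpin ratios was not tested.

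Serpinb3, a member of the squamous cell carcinoma antigen group whose human form inhibits cysteine cathepsins, had the highest ratio of all the serpins. Its level was 14.44 and 14.84 in E19, against 12.20 and 12.28 in E16, first where E19 carried Cy5 and then where it carried Cy3, an order kept for all levels below. Both E19 channels lay above both E16 channels, and the ratio was 2.40 ± 0.22, or 5.29-fold. For called serpins such separation follows largely from the 2-fold rule, and its share over all detected genes was not counted. Serpinb7, whose human form is mutated in a recessive palmoplantar keratosis, had levels of 14.27 and 14.21 in E19, against 12.38 and 12.48 in E16. Its ratio was 1.81 ± 0.11, and the channels of the stages did not overlap.

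Serpinb13, known as headpin or hurpin and in humans an inhibitor of cathepsins K and L in keratinocytes, had levels of 9.71 and 9.70 in E19, against 8.02 and 7.88 in E16. The ratio was 1.76 ± 0.093, with the stages well apart on both arrays. Serpinb2, the type 2 plasminogen activator inhibitor, had levels of 13.78 and 13.63 in E19, against 12.005 and 12.02 in E16. Its ratio was 1.69 ± 0.11. Serpinb8, which in humans inhibits the proprotein convertase furin, had levels of 9.65 and 9.43 in E19, against 7.98 and 8.10 in E16. The arrays gave 1.67 and 1.33, with a mean ratio of 1.502 ± 0.24.

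Serpinb5 encodes maspin, a clade B protein of epithelia that does not inhibit proteases. On its brightest probe, the level was 16.16 and 16.48 in E19, against 14.57 and 14.77 in E16, and the ratio was 1.65 ± 0.088. The array carried 3 probes for this gene, and they disagreed. The next probe gave a ratio of 1.63 ± 0.11, while the dimmest gave -0.61 ± 0.049, with levels of 11.79 and 11.71 in E19, against 12.36 and 12.35 in E16. Averaged over its probes, Serpinb5 was at 0.89 and was no longer called, and the authors' deposited table listed it at 0.68. Serpinb12, which in humans inhibits trypsin-like proteases, had levels of 15.08 and 14.93 in E19, against 13.65 and 13.68 in E16, and a ratio of 1.34 ± 0.13. After median centring in place of loess, Serpinb12 and Serpinb5 had nearly the same mean ratios, 1.31 and 1.64, but were not called, since the arrays lay farther apart (2.05 and 0.58 for Serpinb12, 2.38 and 0.89 for Serpinb5).

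**Figure D3:**
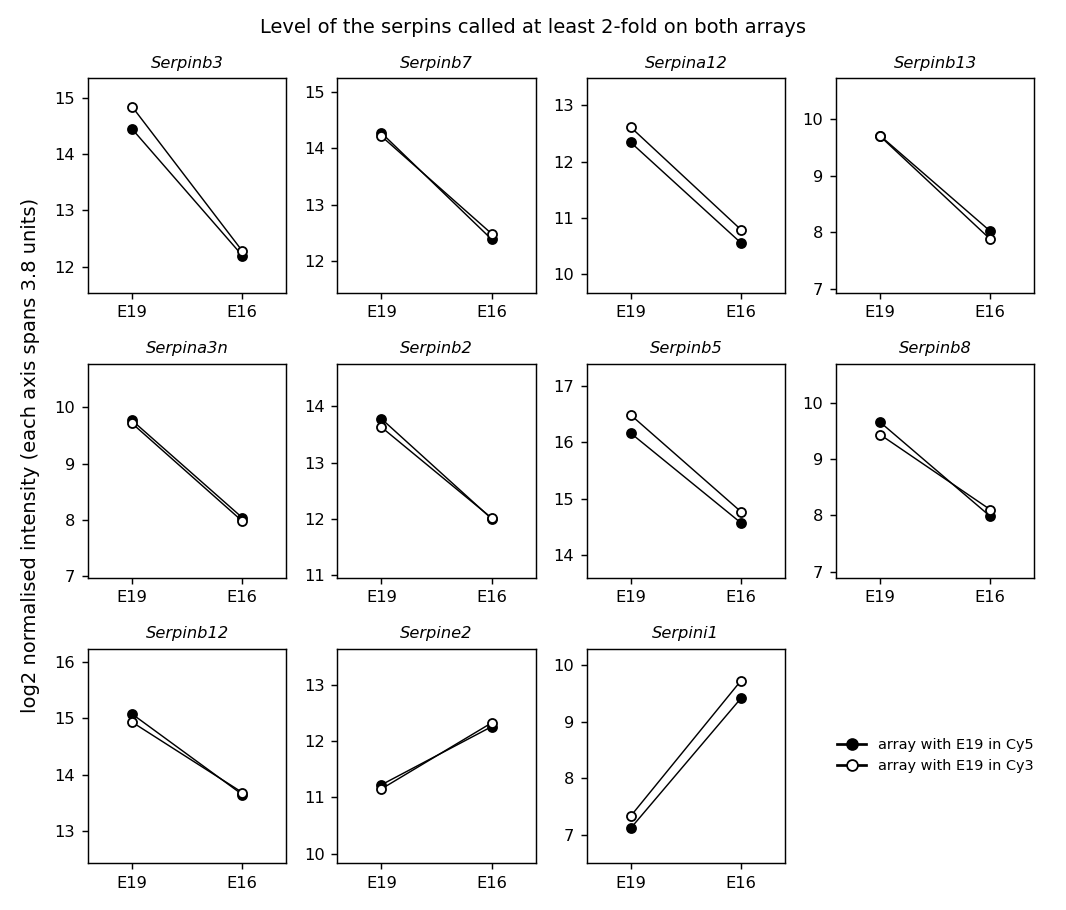
Log2 normalised intensity of the 11 called serpins in the E19 pool (left) and the E16 pool (right), with lines joining the channels of 1 array. In the 9 panels from Serpinb3 to Serpinb12 both E19 points lie above both E16 points, and in the panels of Serpine2 and Serpini1 both lie below. The panels were chosen by the 2-fold rule, so this separation follows largely from the choice.

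The other 5 detected clade B serpins were not called. Serpinb10, known as bomapin from human bone marrow, was bright, with levels of 13.85 and 14.02 in E19, against 13.17 and 13.23 in E16. Its channels did not overlap, but its ratio of 0.73 ± 0.077 stayed under 2-fold. Serpinb1a, a rodent form of the leukocyte elastase inhibitor, was at 0.87 ± 0.035. Serpinb6a, which belongs with the human cathepsin G inhibitor SERPINB6, was at 0.29 ± 0.24, its paralogue Serpinb6b at 0.01 ± 0.14 and Serpinb11 at -0.16 ± 0.021.

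All 7 called clade B genes lie in 1 block of the genome. In the RefSeq annotation of the GRCr8 assembly, the clade B members lie in 2 blocks, 9 on chromosome 13 and 4 on chromosome 17. All 9 on chromosome 13 were detected and 7 of them were called higher in E19, with a median of 1.65. Of the 4 on chromosome 17, 3 were detected and 0 were called, with a median of 0.29. Along chromosome 13 the order was Serpinb5, Serpinb12, Serpinb13, Serpinb3, Serpinb11, Serpinb7, Serpinb2, Serpinb10 and Serpinb8. Serpinb11, at -0.16, stood between Serpinb3 at 2.40 and Serpinb7 at 1.81, and Serpinb10, at 0.73, between Serpinb2 at 1.69 and Serpinb8 at 1.502. The measured genes next to the block, Vps4b and Kdsr, were at 0.30 ± 0.063 and 0.57 ± 0.13. On chromosome 17, Bphl at the edge of the block was at 1.15 ± 0.18 and was called higher in E19, while Ripk1, Nqo2 and Wrnip1 were at 0.19, -0.49 and -0.19. Serpinb9, which lies in this block but outside the name rule, was at -0.68 ± 0.14 and was not called. Close relatives lie in both blocks, among them Serpinb3a, and signal that a probe may take from a close relative cannot be told apart.

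**Figure D4:**
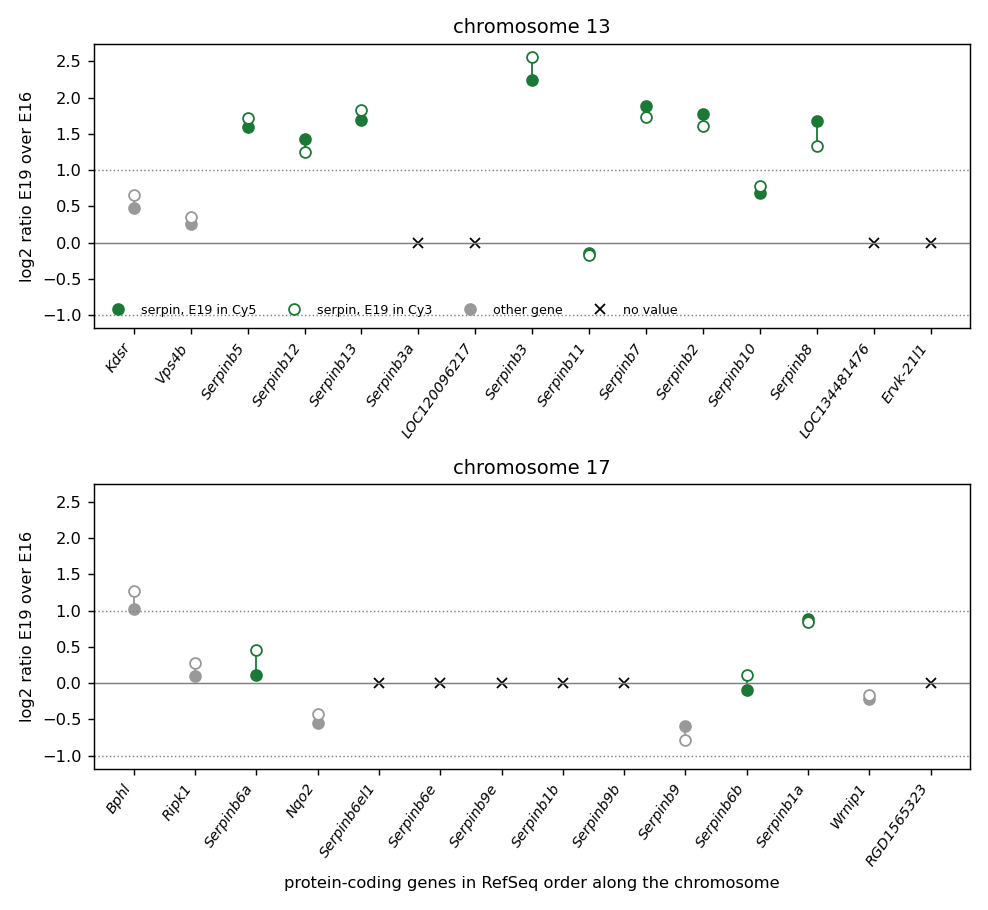
Log2 ratio E19 over E16 of the protein-coding genes in and around the clade B blocks of chromosomes 13 and 17, in their RefSeq order and evenly spaced, with the serpins chosen here in green, other genes in grey and crosses where there is no value. On chromosome 13, 7 of 9 serpins lie above the 2-fold line on both arrays, and on chromosome 17 none does.

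The sequences before the start of 4 called genes of the chromosome 13 block are printed because they share a short motif, beside Serpinb11, 1 of the 2 uncalled serpins of the block, and Serpini1, the serpin with the lowest ratio. Each is the RefSeq promoter window of 250 bases before to 50 after the gene's start, read 5′ to 3′ on the gene's strand. Capitals mark matches to TGANTCA, a pattern looser than the AP-1 motif (TGAGTCA or TGACTCA), which reads the same on both strands.
Serpinb2 (GRCr8, chr13:24055771-24056070, plus strand): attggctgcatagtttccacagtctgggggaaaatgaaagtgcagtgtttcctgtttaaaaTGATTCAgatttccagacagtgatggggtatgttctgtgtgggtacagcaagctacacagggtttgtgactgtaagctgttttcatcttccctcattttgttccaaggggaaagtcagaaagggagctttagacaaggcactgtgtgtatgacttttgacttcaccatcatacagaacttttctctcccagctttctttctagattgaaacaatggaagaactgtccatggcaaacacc
Serpinb3 (GRCr8, chr13:23795249-23795548, minus strand): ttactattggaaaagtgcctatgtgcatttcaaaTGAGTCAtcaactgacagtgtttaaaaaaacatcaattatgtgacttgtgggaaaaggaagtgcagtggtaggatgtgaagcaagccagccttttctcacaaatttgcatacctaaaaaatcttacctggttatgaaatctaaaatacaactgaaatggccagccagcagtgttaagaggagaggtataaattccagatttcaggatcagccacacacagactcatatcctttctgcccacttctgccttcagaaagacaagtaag
Serpinb5 (GRCr8, chr13:23499953-23500252, plus strand): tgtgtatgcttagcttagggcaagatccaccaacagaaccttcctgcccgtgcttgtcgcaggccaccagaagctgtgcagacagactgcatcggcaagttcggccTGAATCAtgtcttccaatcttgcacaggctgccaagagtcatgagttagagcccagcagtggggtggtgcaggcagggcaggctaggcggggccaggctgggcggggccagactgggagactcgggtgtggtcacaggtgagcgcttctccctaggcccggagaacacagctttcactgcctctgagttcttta
Serpinb7 (GRCr8, chr13:23910056-23910355, plus strand): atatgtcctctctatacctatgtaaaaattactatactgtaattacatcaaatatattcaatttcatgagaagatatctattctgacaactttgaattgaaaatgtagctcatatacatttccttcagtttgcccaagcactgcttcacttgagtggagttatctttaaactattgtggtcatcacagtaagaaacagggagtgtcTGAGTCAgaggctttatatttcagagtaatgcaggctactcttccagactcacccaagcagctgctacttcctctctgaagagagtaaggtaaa
Serpinb11 (GRCr8, chr13:23840576-23840875, plus strand): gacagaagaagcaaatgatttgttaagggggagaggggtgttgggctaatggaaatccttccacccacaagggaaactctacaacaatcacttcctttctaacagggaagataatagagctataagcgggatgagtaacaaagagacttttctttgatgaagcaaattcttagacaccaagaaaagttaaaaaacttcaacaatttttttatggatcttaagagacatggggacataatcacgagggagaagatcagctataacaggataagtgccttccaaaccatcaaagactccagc
Serpini1 (GRCr8, chr2:162645112-162645411, plus strand): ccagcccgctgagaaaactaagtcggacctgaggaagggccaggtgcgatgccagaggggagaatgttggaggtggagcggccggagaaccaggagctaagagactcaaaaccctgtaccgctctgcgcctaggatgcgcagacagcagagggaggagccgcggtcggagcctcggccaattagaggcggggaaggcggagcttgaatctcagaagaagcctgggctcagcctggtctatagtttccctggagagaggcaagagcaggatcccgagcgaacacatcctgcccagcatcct

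The match was TGATTCA, starting 189 bases before the start, in Serpinb2, TGAGTCA at 216 bases in Serpinb3, TGAATCA at 144 bases in Serpinb5 and TGAGTCA at 44 bases in Serpinb7. Only the matches in Serpinb3 and Serpinb7 have the letters of the AP-1 motif, and the counts that follow are for the looser pattern. Of the 7 serpins higher in E19 that had a promoter in the table, these 4 held TGANTCA, and of the 14 other detected serpins with a promoter 0 did. Over all 33469 promoters in the table, 7.33% held it. The motif was 1 of 11 searched on both strands, all chosen after the ratios were known. A match describes the letters in this window and is neither a site nor a cause.

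The counts for the other motifs are given in the same order. TATAAA was in 3 of the 7 serpins higher in E19 and 1 of the 14 others (14.2% of all promoters), CCAAT in 4 and 2 (37.5%), CAGAC in 6 and 6 (50.1%), CANNTG in 5 and 11 (72.1%), and CATG in 5 and 8 (62.6%). GAANNTTC was in 2 and 1 (8.59%), GGGCGG in 2 and 4 (33.1%), CACCC in 2 and 9 (54.9%), TTGCNNAA in 2 and 4 (10.6%), and AACNGGTT in 0 and 0 (2.1%). CACCC and CANNTG can share letters, as can CATG and CANNTG.

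Clade A had 2 serpins called higher in E19 and 0 called higher in E16 among its 5 detected members, with a median of 0.46. Serpina12 encodes vaspin, an adipokine known to inhibit kallikrein 7. Its level was 12.34 and 12.61 in E19, against 10.56 and 10.79 in E16. The stages did not overlap, and the ratio was 1.80 ± 0.024. Serpina3n, a rodent relative of antichymotrypsin that is induced in the acute phase, had levels of 9.77 and 9.71 in E19, against 8.04 and 7.98 in E16. Its ratio was 1.73 ± 0.0061, nearly the same on both arrays.

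Serpina5, the protein C inhibitor, was well measured but not called, with levels of 11.96 and 11.74 in E19, against 12.19 and 12.37 in E16. Both E19 channels lay below both E16 channels, and the ratio was -0.42 ± 0.28. Serpina9, known as centerin from human germinal centre B cells, was at 0.46 ± 0.061, and Serpina4, which encodes kallistatin, at -0.21 ± 0.30. Of the clade A serpins not detected, Serpina6 encodes corticosteroid-binding globulin, Serpina7 thyroxine-binding globulin and Serpina10 the protein Z-dependent protease inhibitor, all plasma proteins made by the liver. Adipocyte markers, given here because vaspin is known from fat, were higher in E19: 8 of 9 detected were called, with a median ratio of 3.54 and mean levels of 12.42 and 12.40 in E19, against 9.24 and 9.44 in E16. The part of either cell type in the clade A ratios was not tested.

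Serpinc1 and Serpind1, plasma inhibitors of clotting, were near background. Serpinc1, which encodes antithrombin, had levels of 6.82 and 6.77 in E19, against 6.48 and 6.33 in E16, on its detected probe. That probe was not well above background in E16, so by it Serpinc1 was at least 1.28-fold higher in E19. The other Serpinc1 probe was well above background in neither pool, with a ratio of 0.01 ± 0.15, so the bound rests on 1 dim probe. Serpind1, which encodes heparin cofactor 2, had levels of 7.01 and 6.72 in E19, against 6.35 and 6.13 in E16, and was at least 1.45-fold higher in E19. With Feature Extraction's processed signals, to which no offset was added, these genes were at 2.18 and 3.04 and past the 2-fold rule, and with normexp at an offset of 0 they were at 0.88 and 1.54, where Serpind1 alone passed it. Liver and plasma protein markers also differed between the pools. Of the 20 detected, 11 were called higher in E19, led by Alb (4.18 ± 0.22), Fga (2.41 ± 0.034), Kng1 (2.40 ± 0.11), Fgb (2.39 ± 0.039), Ambp (2.25 ± 0.0090) and Fgg (2.14 ± 0.16), and Ttr was called higher in E16 (-2.01 ± 0.51). Their median ratio was 1.21, and their mean level was 9.71 and 9.61 in E19, against 8.32 and 8.30 in E16. Their part in the ratios of the secreted serpins was not tested.

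In clade E, 1 serpin was called higher in E16. Serpine2, which encodes protease nexin 1, an inhibitor of thrombin and urokinase, had levels of 11.22 and 11.15 in E19, against 12.25 and 12.32 in E16. Both E19 channels lay below both E16 channels, and the ratio was -1.10 ± 0.10. Its second probe gave -0.81 and -1.20, and the mean over its probes was -1.05, with -0.92 and -1.19 on the arrays, which was not called. After median centring it was at -1.16, with -0.66 and -1.66 on the arrays, and was not called either.

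Genes of fibrinolysis and coagulation, mostly proteases and receptors, were set beside the serpins. Of 18 detected fibrinolysis and coagulation genes, 2 were called higher in E19 and 0 higher in E16, with a median of 0.36. Over all detected genes the shares were 4.13% and 3.74%. The called genes were Plau, which encodes urokinase (1.27 ± 0.078), and Kng1, which encodes kininogen (2.40 ± 0.11). Kng1 is neither a protease nor a receptor, and it is also counted among the called liver and plasma protein markers. The urokinase receptor Plaur was at 0.88 ± 0.21, tissue plasminogen activator Plat at -0.39 ± 0.24 and tissue factor F3 at 1.05 ± 0.072. Plasminogen, encoded by Plg, was not detected. Urokinase therefore lay on the same side as Serpinb2 (1.69) and on the opposite side from Serpine2 (-1.10).

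Serpini1 had the lowest ratio of the family. It encodes neuroserpin, a secreted inhibitor of tissue plasminogen activator known from neurons. Its level was 7.11 and 7.33 in E19, against 9.42 and 9.73 in E16. The stages were far apart on both arrays, and the ratio was -2.35 ± 0.068, or 5.11-fold higher in E16. Feature Extraction's processed signals gave -3.04, and it was at -3.03 in the authors' deposited table and -2.96 with no offset in the background correction. Neuron and glia markers were lower in E19 too. Of the 12 detected, 7 were called higher in E16 and 0 higher in E19, led by Chgb (-4.69 ± 0.024), Stmn2 (-4.14 ± 0.35), Ina (-3.59 ± 0.13), Snap25 (-3.22 ± 0.032), Elavl4 (-3.04 ± 0.10) and Nefm (-2.98 ± 0.092). Their median was -2.29, and their mean level was 8.76 and 8.82 in E19, against 10.96 and 11.02 in E16. The glial marker Sox10 was at -0.44 and was not called. Whether Serpini1 followed the neuronal content of the pools was not tested.

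Clades F and H showed no called gene. Serpinf1, which encodes pigment epithelium-derived factor, a secreted serpin that does not inhibit proteases, had levels of 14.05 and 14.25 in E19, against 13.46 and 13.65 in E16. The dye made almost no difference to it, and its ratio was 0.59 ± 0.0037. Serpinf2, which encodes the plasmin inhibitor antiplasmin, was at 0.51 ± 0.27. Its second, dimmer probe gave 0.19 ± 0.24, and the mean over its probes was 0.35. Serpinh1 encodes the collagen chaperone of the endoplasmic reticulum, and its levels were 16.75 and 16.36 in E19, against 16.44 and 16.69 in E16. The stages overlapped, since whichever pool carried Cy5 was brighter, and the mean ratio was -0.01 ± 0.46. Of 24 detected collagen and collagen folding genes, 0 were called in either direction, with a median of 0.07 and a range between -0.92 for Plod2 and 0.90 for Col3a1. Over all detected genes 4.13% were called higher in E19 and 3.74% higher in E16.

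Epidermal and kallikrein serine proteases, a list not limited to the outer epidermis, were set beside the clade B serpins. Of 21 detected epidermal and kallikrein genes, a list that also holds the inhibitors Spink5, Spint1 and Spint2, 10 were called higher in E19 and 0 higher in E16, with a median of 0.94. They were led by Klk7, which is the known target of vaspin (2.25 ± 0.31), Spink5 (2.07 ± 0.54), Klk6 (1.89 ± 0.10), Klk13 (1.45 ± 0.28), Tmprss13 (1.43 ± 0.0024) and Klk8 (1.43 ± 0.14). Klk5 was at 0.03 ± 0.040 and Klk1 at -0.13 ± 0.040, and neither was called. Furin was at 0.30 ± 0.33 and not called, beside 1.502 for Serpinb8. Of 9 detected cathepsins, 0 were called, with a median of 0.56. The cathepsins that human SERPINB3 and SERPINB13 are known to inhibit were Ctsl at 0.72 ± 0.36, Ctsk at 0.74 ± 0.28 and Ctss at 1.05 ± 0.13.

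Granule proteases of leukocytes and mast cells had 6 called higher in E19 and 0 higher in E16 among 14 detected, with a median of 0.67. They were Gzma (2.68 ± 0.034), Gzmk (2.33 ± 0.12), Cpa3 (1.47 ± 0.21), Tpsb2 (1.34 ± 0.057), Gzmm (1.31 ± 0.030) and Cma1 (1.104 ± 0.11). Ctsg, which encodes the cathepsin G that human SERPINB6 inhibits, was not detected. Macrophage and mast cell markers, a list that shares Cpa3 and Tpsb2 with the granule proteases, had 7 of 14 called higher in E19 and 0 higher in E16. Their median was 0.98, and they were led by Hpgds (2.50 ± 0.096), Lyz2 (1.64 ± 0.081), Cd163 (1.62 ± 0.054), the shared mast cell genes Cpa3 and Tpsb2, and Hdc (1.19 ± 0.017). Those not called included Cd68 (0.59), Csf1r (0.43) and Kit (-0.06).

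**Figure D5:**
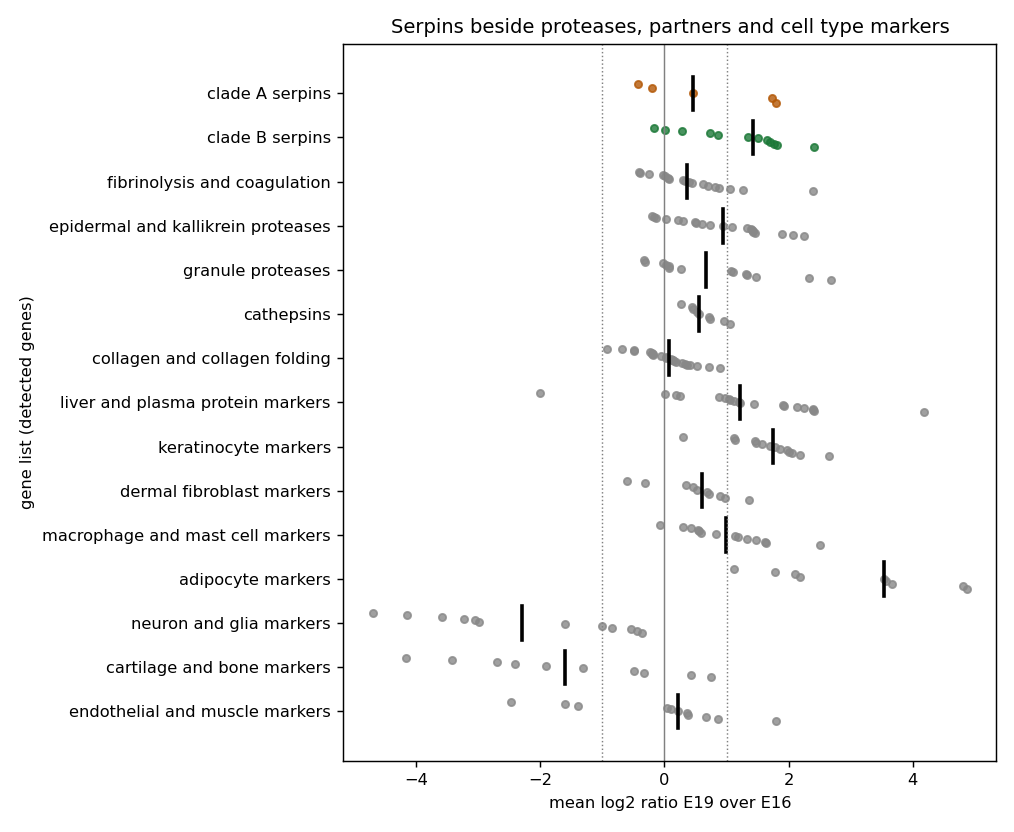
Mean log2 ratio E19 over E16 of each detected gene (points) and the median (bar) for clade A and clade B serpins, for the protease and partner lists, and for the cell type markers. Clade B has a median of 1.42 beside 1.74 for keratinocyte markers, 0.94 for epidermal and kallikrein proteases and 0.56 for cathepsins.

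Markers of skin cells were detected, but so were most markers of other tissues. Neuron and glia markers had 12 of 12 detected, and endothelial and muscle markers 11 of 11. Detection alone therefore cannot bear out the skin label. Of 18 keratinocyte markers, 14 had a named probe and all 14 were detected, with called ratios led by Tgm3 (2.65 ± 0.31), Csta (2.19 ± 0.084), Dsc1 (2.06 ± 0.28), Flg (1.97 ± 0.35), Krt10 (1.87 ± 1.04) and Dsp (1.70 ± 0.098). All 10 dermal fibroblast markers were detected, of which Dcn alone was called (1.36 ± 0.043), with a median of 0.60. Markers of other tissues differed in both directions. Of 10 detected cartilage and bone markers, 6 were called higher in E16 and 0 higher in E19, with a median of -1.60, led by Cnmd (-4.16 ± 0.19), Ibsp (-3.42 ± 0.37), Col2a1 (-2.69 ± 0.24), Col9a2 (-2.41 ± 0.20), Matn1 (-1.90 ± 0.52) and Acan (-1.31 ± 0.073). Of 11 endothelial and muscle markers, Myod1 (-2.48 ± 0.024) and Myog (-1.61 ± 0.12) were called higher in E16 and Myh8 (1.80 ± 0.14) higher in E19. Lep, Itih4 and Sp7 were the markers of their lists that had a probe but were not detected. Adipoq (4.87 ± 0.14), Fabp4 (4.81 ± 0.0093), Ucp1 (3.66 ± 0.30), Cidea (3.57 ± 0.49), Retn (3.54 ± 0.26) and Pparg (2.18 ± 0.0041) led the adipocyte markers.

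The authors' deposited table, whose ratios were combined over both arrays, listed all 25 detected serpins, each with the same sign as the mean ratio here. Past 2-fold it placed 11 of them towards E19 and 2 towards E16. Among the detected serpins, Serpind1 (3.04), Serpinc1 (2.20) and Serpinb5 (0.68) in the authors' deposited table lay farthest from the ratios given here. Of the serpins not detected, the authors' deposited table listed Serpina10 at 2.53 and Serpina6 at 2.21.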

How the data were processed

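RNA of 1 E19 pool and 1 E16 pool was measured on 2 dye-swapped Agilent arrays of 45018 spots. Per the file headers, Feature Extraction 9.5.1.1 gave mean spot intensity and local background per channel, processed signals and a log10 ratio with its p-value. The authors' deposited table lists, per sequence, a log10 ratio with a p-value, and how both arrays were combined is not given in the sources used here. It was read as E19 over E16 because it correlated with the array with E19 in Cy5 (r = 0.90 across genes). Per the labels, RNA came from a NucleoSpin kit and was amplified before labelling.

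From the deposited intensities, background was corrected with normexp (offset 50) and ratios were normalised by loess with control spots at weight 0, in limma 3.58.1 and R 4.3.3. Levels used Aquantile. An offset of this kind draws the ratios of dim spots towards 0. Outlier-flagged spots were left out, ratios were turned to E19 over E16, spots and then arrays were averaged, and the brightest detected probe stood for a gene. A gene not well above background in a pool was given as at least N-fold, against the higher of its own level and the lowest well-measured level. Both arrays hold the same RNA and count as 1 replicate per stage, and their number limits the precision. Counts, lists and plots were made in Python 3.11.15 (numpy 2.4.6, pandas 2.3.3, matplotlib 3.10.9).

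Serpins kept the name in the files. Other probes (41012 in all) were named through RefSeq GRCr8, by accession (10735), symbol (5571) or a synonym (3729), while 3432 kept their name and 17545 had none. All 31 serpins matched RefSeq, and 25 had a promoter there. Every detected serpin was named except 1 that the counts include and that is not reported here, with levels for those called and for the 2 brightest of clades A and B. Levels of some others were added after their values were seen. Up to 6 called genes per direction were named from each list. The members, lists and rules were chosen with earlier results of these data known. Probes that may recognise close relatives were not separated, and protein sequences were not used here. On simulated arrays, 96 of 100 probes with a true log2 ratio of 1.5 in size were called. So were 100 of 100 with a log2 ratio of 3 in size and 0 of 40812 unchanged probes. The changed probes were drawn from middle to upper intensities, with noise of a chosen size. These shares therefore do not describe dim probes or the scatter of the real arrays.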

Additional observations from a re-analysis of the deposited data

Results flagged for a closer look

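Of the genes that RefSeq now names as serpins, 3 were detected on the array under other names and lay outside the name rule, so that no count above includes them. Serpina11, listed as LOC362774, had a mean log2 ratio E19 over E16 of 0.191 ± 0.095 (SD of 2 arrays). Serpina3c, listed as Spin2b, was at -0.0871 ± 0.26, with -0.27 and 0.09 on the arrays. Serpinb9, listed as MGC94010 and in humans an inhibitor of granzyme B, was at -0.684 ± 0.14. None of the 3 serpins was called. Gzmb was near background, was not well above it in E16, and was at least 1.2-fold higher in E19. That bound is the same as its measured ratio, as its own E16 level lay above the lowest well-measured level.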

How the results depend on the processing

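Each setting was changed alone, except that Feature Extraction's signals and the authors' deposited table replace background correction and normalisation together. The count of serpins higher in E19 was between 7 (median centring) and 11 (Feature Extraction's signals or the authors' deposited table), against 9, and was 14 with a 1.5-fold rule and 7 with a 3-fold rule. The count higher in E16 was 1 with median centring, with the mean over all detected probes and with a 3-fold rule, and otherwise 2. The share of all detected genes called was counted for the main setting and the 2-fold rule alone. The counts under other settings and thresholds therefore have no such share to be read against. Under median centring Serpinb12, Serpinb5 and Serpine2 lost their call. The median ratio of the detected serpins was 0.88 without an offset, 0.73 without background subtraction or with probes well above background at both stages, 1.001 with the processed signals or the log ratio of Feature Extraction, 0.41 centred on spike-ins, 0.49 without a filter on dim probes and 0.95 in the authors' deposited table. With 1 array left out, the count higher in E19 was between 9 and 10, the count higher in E16 stayed at 2 and the median lay between 0.60 and 0.68. With both arrays, the clade B median lay between 1.101 and 1.501 and that of clade A between 0.24 and 1.001. Of the ratios of single serpins under 12 settings, 68 moved by more than the SD between arrays, 230 did not, and 0 called serpins reversed. The cause of these shifts was not tested. No paired analysis was possible because each stage is 1 pool on both arrays. Depth here is signal over background, which limits Serpinc1, Serpind1 and the 6 serpins not detected.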
